A study of Mus musculus with 2 samples.

Results

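A set of 9 genes that mark or regulate blood stem and progenitor cells was followed in whole liver of mouse embryos at embryonic day 13.5. They are the transcription factor genes Meis1, Hlf, Mecom and Sox17 and the cell surface genes Cd34, Prom1, Ly6a, Slamf1 and Cd48. The set was a list of symbols, matched by gene ID to both gene tables, and all 9 members were found among 43346 annotated genes. Liver was taken from B6NCrl embryos, males and females pooled, with no treatment and no altered allele, and it gave 2 total RNA-seq libraries that form 1 group. The libraries are biological replicates from separate tissue samples with a shared donor entry, and an SD over n = 2 covers no more than the spread of that pair. Each was made from 10 ng of RNA longer than 200 nt with spike-in RNAs added.

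The fetal liver at this stage is the main site where blood stem cells arriving from the aorta and other sites multiply. Rare stem cells lie there among far more numerous red cell precursors, and they are told apart by combinations of surface proteins and by the transcription factors that keep them from differentiating. None of the 9 genes belongs to stem cells alone. Cd34, Sox17 and Ly6a are also known from endothelium, Prom1 from epithelium and Cd48 from many maturing blood cells. In RNA of a whole tissue, fewer cells of a type and less RNA per cell cannot be told apart.

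Replicate 1 held 39182457 expected counts on annotated genes and replicate 2 held 37432977. Spike-ins made up 1.16% of the counts in replicate 1, against 1.88% in replicate 2, and globins took 34.6% and 31.2% of the gene TPM. TPM is the transcript abundance per length and library size, so levels of different genes can be set side by side on it. The 12 erythroid markers were all above 1 TPM in both libraries, and the hepatoblast genes Afp and Alb stood at 6219 ± 832 and 1660.2 ± 183 TPM. Of the 10 cardiac markers, 6 were over 1.5-fold apart between the libraries, and their summed level was 38.1 TPM in replicate 1 and 95.3 TPM in replicate 2. Most lymphoid markers were low, with 13 of 16 below 1 TPM in both libraries, as were 9915 of the 21474 protein-coding genes. Cd3e had no count. The 3 that reached 1 TPM in both were Cd79b with 3.32 and 3.96 TPM, Lck with 3.46 and 3.19 TPM and Gata3 with 1.32 and 1.37 TPM.

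In all, 8 of the 9 genes reached 1 TPM in both libraries, and the remaining one, Mecom, did so in replicate 2 only. Of all annotated genes 28.1% reached that level in both, and of the 21474 protein-coding genes 52.1%. The median of the members was 3.18 TPM in replicate 1 and 4.68 TPM in replicate 2, against 1.37 and 1.51 TPM for protein-coding genes. From the highest to the lowest mean, the order was Cd34, Meis1, Cd48, Prom1, Hlf, Ly6a, Sox17, Slamf1 and Mecom, over a 17.4-fold range. Neighbours were taken as separated where the gap of their means exceeded the sum of their SDs and the order held in both libraries. That was so for 4 of the 8 neighbouring pairs, namely Cd34 above Meis1, Cd48 above Prom1, Prom1 above Hlf and Slamf1 above Mecom. Meis1 and Cd48, Hlf and Ly6a, Ly6a and Sox17, and Sox17 and Slamf1 did not differ beyond their spread.

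**Figure D1:**
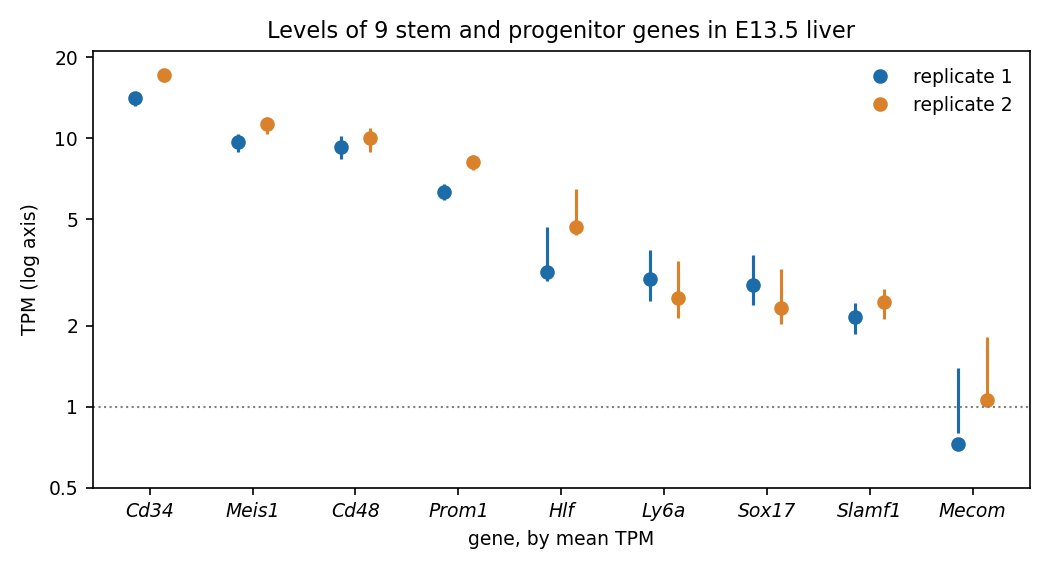
TPM of each gene on a log axis, ordered by mean TPM, with replicate 1 left of replicate 2. Bars are the deposited credibility intervals, and the dotted line marks 1 TPM. Cd34 is highest at 14.1 and 17.2 TPM, and Mecom is lowest at 0.73 and 1.06 TPM.

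Among the transcription factors, Meis1 was the most abundant. It encodes a TALE homeodomain protein that binds DNA with Pbx and Hox partners and maintains stem cells. Meis1 (ENSMUSG00000020160.14, chr11:18879817-19018985 of GRCm38, minus strand) had 9.66 TPM in replicate 1 and 11.3 TPM in replicate 2, a mean of 10.5 ± 1.18 (SD, n = 2), from 894 and 992 expected counts. Within its family of 11 measured TALE genes, 10 reached 1 TPM in both libraries and Pknox2 lay below it in both. Pknox1 and Tgif1 followed Meis1 at 9.73 ± 1.05 and 8.54 ± 0.764 TPM. Its closest relative Meis2 had 1.89 and 2.29 TPM, and the log2 ratio of Meis1 over Meis2 was 2.33 ± 0.03 within a library. With the posterior mean TPM of the same tables that ratio was 1.54, which is a smaller difference by more than 1.5-fold.

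The Hox genes that partner Meis1 were far lower than Meis1. None of the 10 listed members of the Hoxa and Hoxb clusters reached 1 TPM in both libraries, and 9 lay below it in both. Hoxa5 had 0.74 and 1.04 TPM, Hoxa7 had 0.61 and 0.69 TPM, and Hoxa9 had 0.8 and 0.4 TPM. The list median was 0.22 TPM in replicate 1 and 0.165 TPM in replicate 2.

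Meis1 is transcribed into several annotated forms, and 2 coding ones part near their carboxyl end, which is the reason for showing both. They are known as Meis1a and Meis1b. Meis1-201 encodes 390 residues and uses a 95-nt exon (chr11:18883988-18884082, minus strand, GRCm38) that Meis1-209, with 465 residues, skips. Lower-case letters are the shared 30 coding bases before the parting, and capitals are the coding bases that follow in each, up to 60. Meis1-201 is shown to the end of its 56 coding bases, and Meis1-209 for the first 60 of 281.
Meis1-201: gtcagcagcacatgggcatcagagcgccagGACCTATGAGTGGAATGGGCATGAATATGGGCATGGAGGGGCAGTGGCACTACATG
Meis1-209: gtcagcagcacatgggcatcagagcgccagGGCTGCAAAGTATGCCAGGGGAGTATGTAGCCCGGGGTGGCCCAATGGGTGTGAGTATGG

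The shorter Meis1a-type transcript Meis1-201 had 18.6% of the gene's TPM in replicate 1 and 28.2% in replicate 2, and Meis1-209 had 15.5% and 16.0%. In replicate 1 the credibility intervals were 0.606 to 2.84 TPM for Meis1-201 and 3.05e-05 to 2.29 TPM for Meis1-209. In replicate 2 they were 1.73 to 4.59 and 0.174 to 2.93 TPM. They overlapped in both libraries, so the order of Meis1-201 and Meis1-209 was not resolved. The shares are the deposited percentages of the gene's TPM. The largest share went to Meis1-203, with 56.4% and 47.3%, a processed transcript of 2008 nt with no annotated coding sequence. Of its bases 98.7% also lie in exons of Meis1-201, so few reads can tell the pair apart. Protein-coding transcripts together held 35.5% of the TPM in replicate 1 and 45.8% in replicate 2, and 47.3% and 58.1% of the expected counts. The antisense gene Gm16140, which shares 896 exonic bases with Meis1, had 0.25 TPM in replicate 1 and was listed at 0 in replicate 2. Whether the counting used strand is not stated, so reads of such overlapping genes are uncertain.

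Hlf encodes a PAR bZIP factor that keeps stem cells quiescent. Hlf (ENSMUSG00000003949.12, chr11:90336536-90390895, minus strand) had 3.18 TPM in replicate 1 and 4.68 TPM in replicate 2, with deposited credibility intervals of 2.93 to 4.66 and 4.36 to 6.49 TPM. Its expected counts were 440 and 551. All of the family was measured. Its relative Tef had 4.07 and 5.27 TPM, and the log2 ratio of Hlf over Tef was −0.26 ± 0.13. Nfil3, a repressor that binds the same sites, had 3.21 and 3.85 TPM, and the circadian factor Dbp had 0.36 and 0.61 TPM.

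The transcripts of Hlf were divided among coding and non-coding annotations. Hlf-201, which encodes 295 residues, led in both libraries with 43.1% and 36.6% of the TPM. The processed transcripts Hlf-203 and Hlf-202 had 33.3% and 16.3% in replicate 1 and 33.8% and 22.5% in replicate 2. Of their bases, 96.5% and 93.7% are exonic in Hlf-201. Counted as reads, which grow with length, Hlf-201 held 65.4% and 58.6%.

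Mecom, also called Evi1 or Prdm3, encodes a zinc finger factor required by long-term stem cells, and it was the lowest of the set. Mecom (ENSMUSG00000027684.12, chr3:29951296-30548008, minus strand) had 0.73 TPM in replicate 1 and 1.06 TPM in replicate 2, from 107 and 122 expected counts. The value of replicate 1 lay under its own credibility interval of 0.797 to 1.39 TPM, and the posterior means were 1.08 and 1.41 TPM. Whether Mecom passed 1 TPM therefore depended on the estimator. Its relative Prdm16, which also acts in stem cells, had 1.6 and 2.01 TPM, and the log2 ratio of Mecom over Prdm16 was −1.03 ± 0.15. Of the 8 measured genes of this family, 6 reached 1 TPM in both libraries, led by Prdm4, Prdm2 and Prdm15 at 4.97 ± 0.629, 3.46 ± 1.16 and 2.55 ± 0.0212 TPM.

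Mecom has a distal start, which gives the MDS1-EVI1 form with a PR domain, and a proximal start, which gives the EVI1 form without it. The 250 bases before each start are shown because annotated transcripts are assigned to each. They are from RefSeq on GRCm38.p6, in the direction of transcription, at chr3:30509760-30510009 for the distal and chr3:30013205-30013454 for the proximal start, both on the minus strand. Capitals mark matches to the GATA motif (GATAA, or TTATC on the other strand) and the MEIS motif (TGACAG, or CTGTCA).
Mecom distal: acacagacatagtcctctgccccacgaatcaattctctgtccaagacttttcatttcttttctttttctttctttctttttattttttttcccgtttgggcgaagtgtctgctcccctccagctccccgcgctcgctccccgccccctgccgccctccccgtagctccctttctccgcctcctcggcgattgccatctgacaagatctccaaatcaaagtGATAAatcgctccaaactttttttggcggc
Mecom proximal: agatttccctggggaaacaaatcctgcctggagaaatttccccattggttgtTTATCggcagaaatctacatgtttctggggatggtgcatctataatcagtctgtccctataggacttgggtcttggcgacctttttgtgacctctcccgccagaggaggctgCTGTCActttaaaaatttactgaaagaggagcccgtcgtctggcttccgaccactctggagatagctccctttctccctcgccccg

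The distal window held 1 GATA match and the proximal window 1 GATA and 1 MEIS match. The same letters on either strand occur in 22.6% and 15.9% of the 32851 promoter windows of this length in the table, so these matches describe the windows and mark no site. Transcripts from the distal start held 19.8% of the TPM of Mecom in each library. Those from the proximal start held 39.1% in replicate 1 and 22.3% in replicate 2, and transcripts starting elsewhere in the gene held 41.1% and 57.9%. A start was assigned where the annotated 5′ end lay within 1000 nt of it. The distal start rested on 27.0 and 35.6 expected counts and the proximal one on 40.9 and 22.0, so their order was not detectable at this depth.

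The leading Mecom transcript differed between the libraries. Mecom-206, which encodes 718 residues, had 29.9% in replicate 1 and was listed at 0 in replicate 2, where Mecom-203, with 795 residues, led at 46.8%. By posterior mean TPM, Mecom-203 led in both libraries with 22.2% and 30.3%, and Mecom-206 had 13.8% and 7.56%. Of the bases of Mecom-206, 85.7% also lie in exons of Mecom-203. The credibility interval of Mecom-206 reached up to 0.320 TPM in replicate 1 and 0.258 TPM in replicate 2, so the listed 0 does not set the libraries apart.

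Sox17 encodes a SoxF factor that fetal, but not adult, stem cells need, and that also acts in arterial endothelium. Sox17 (ENSMUSG00000025902.9, chr1:4490931-4497354, minus strand) had 2.83 TPM in replicate 1 and 2.34 TPM in replicate 2, from 171 and 147 expected counts. The 2 other SoxF genes are endothelial. Sox18 had 5.78 and 5.86 TPM, with a log2 ratio of Sox17 over Sox18 of −1.18 ± 0.21, and Sox7 had 0.64 and 0.92 TPM. Of 11 arterial markers, 6 had 1 TPM or more in both libraries, Sox17 itself among them, a share near that of protein-coding genes. Their summed level was 21.6 TPM in replicate 1 and 23.5 TPM in replicate 2, of which the semaphorin and VEGF co-receptor gene Nrp1, also expressed outside arteries, made up 8.97 and 10.9 TPM. The gap junction gene Gja4 had 2.31 and 2.5 TPM, and the log2 ratio of Sox17 over Gja4 had opposite signs in the libraries, 0.29 and −0.10. The part of endothelial RNA in the level of Sox17 was not tested.

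Sox17 was the other gene whose leading transcript by TPM was listed differently in the 2 libraries. Sox17-204, annotated as 840 nt and coding, led with 32.5% in replicate 1, against 37.1% in replicate 2, and Sox17-201, the 419-residue form, had 25.8% and 39.3%. In replicate 1 the credibility intervals were 0.383 to 1.52 TPM for Sox17-204 and 0.410 to 1.00 TPM for Sox17-201. In replicate 2 they were 0.310 to 1.29 and 0.556 to 1.12 TPM. They overlapped in both libraries, so the order of Sox17-204 and Sox17-201 was not resolved. Over expected counts Sox17-201 led in both libraries with 49.1% and 64.4%. The gene Gm37587 on the opposite strand shares 804 exonic bases with Sox17 and had 0.07 and 0.1 TPM.

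Cd34 was the highest of the surface genes and of the whole set. It encodes a sialomucin that marks stem and progenitor cells and the endothelium of small vessels. Cd34 (ENSMUSG00000016494.5, chr1:194938819-194961279, plus strand) had 14.1 TPM in replicate 1 and 17.2 TPM in replicate 2, a mean of 15.6 ± 2.2 (SD, n = 2), from 1275 and 1399 expected counts. Of all annotated genes, 88.0% had a lower mean, and of protein-coding genes 76.8%. Its relatives podocalyxin (Podxl) and endomucin (Emcn) had 10.9 ± 1.56 and 2.12 ± 0.106 TPM. Kit, the receptor for stem cell factor on a broader range of progenitors, had 10.7 and 14.3 TPM, and the log2 ratio of Kit over Cd34 was −0.33 ± 0.09. The log2 ratio of Cd34 over the endothelial gene Pecam1 was 1.26 ± 0.15.

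Endothelial transcripts were present in both libraries beside Cd34. All 15 endothelial markers reached 1 TPM in both, led by Egfl7, Lyve1 and Plvap at 67.1 ± 6.67, 25.3 ± 4.72 and 23.4 ± 2.40 TPM. Their summed level was 214.0 TPM in replicate 1 and 229.5 TPM in replicate 2, and none was listed at 0. Their part in the levels of Cd34 and Ly6a was not tested.

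Cd34 has 2 coding forms with reads in both libraries, and the bases at which they part are shown because they set the length of the cytoplasmic tail. Cd34-202 keeps a 156-nt stretch (chr1:194959780-194959935, plus strand, GRCm38) that Cd34-201 splices out. Lower-case letters are the 30 coding bases that the pair shares before the parting, and capitals are the coding bases that follow, up to 60. Cd34-202 is shown to the end of its 12 coding bases, and Cd34-201 for the first 60 of 183.
Cd34-201: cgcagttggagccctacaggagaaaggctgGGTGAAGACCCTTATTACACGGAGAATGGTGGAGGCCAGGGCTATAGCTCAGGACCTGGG
Cd34-202: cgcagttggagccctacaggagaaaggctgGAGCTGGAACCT

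Past the parting, Cd34-202 encodes 4 more residues and then a TGA stop, whereas Cd34-201 encodes 61 more. The full protein has 382 residues and the truncated one 325. Cd34-201 had 61.1% of the TPM in replicate 1 and 57.9% in replicate 2, and Cd34-202 had 37.4% and 40.7%. The log2 ratio of the truncated over the full form was −0.61 ± 0.14, with the full form higher in both libraries. Their credibility intervals did not overlap in replicate 1, at 4.04 to 6.38 TPM for Cd34-202 and 7.14 to 9.67 TPM for Cd34-201. In replicate 2 they did, at 5.28 to 8.73 and 7.79 to 11.4 TPM.

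Prom1 encodes prominin-1 (CD133), a membrane protein of protrusions that marks human stem cells and many epithelial progenitors. Prom1 (ENSMUSG00000029086.11, chr5:43993620-44102032, minus strand) had 6.31 TPM in replicate 1 and 8.15 TPM in replicate 2, from 858 and 1000 expected counts. Its only relative Prom2 was near the floor, at 0 and 5 counts, with the 0 allowing up to 0.0332 TPM in replicate 1. Prom1 exceeded the epithelial gene Epcam, which had 0.58 and 1.86 TPM, by a log2 ratio of 2.79 ± 0.93. It exceeded the ductal keratin gene Krt19, at 2.34 and 3.85 TPM, by 1.26 ± 0.25. Of the 13 hepatoblast and ductal markers, 10 reached 1 TPM in both libraries and none lay below it in both. The list was led by Afp, Alb and Dlk1, and its summed level was 7786 TPM in replicate 1 and 9283 TPM in replicate 2. The part of epithelial RNA in the level of Prom1 was not tested.

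Prom1 has 2 annotated starts with transcripts that were assigned expected counts in both libraries, and the windows before them are shown for that reason. They lie at chr5:44101737-44101986 (distal) and chr5:44094769-44095018 (proximal) on the minus strand, from RefSeq on GRCm38.p6. Capitals mark a RUNX motif (TGTGGT, or ACCACA on the other strand), which occurs in 14.0% of all promoter windows of this length. The proximal window had no match to any of the 6 motifs searched.
Prom1 distal: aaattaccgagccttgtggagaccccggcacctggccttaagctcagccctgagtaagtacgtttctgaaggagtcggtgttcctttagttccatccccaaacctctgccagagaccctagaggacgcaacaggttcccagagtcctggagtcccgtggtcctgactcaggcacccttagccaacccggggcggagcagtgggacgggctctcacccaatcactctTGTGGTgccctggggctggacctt
Prom1 proximal: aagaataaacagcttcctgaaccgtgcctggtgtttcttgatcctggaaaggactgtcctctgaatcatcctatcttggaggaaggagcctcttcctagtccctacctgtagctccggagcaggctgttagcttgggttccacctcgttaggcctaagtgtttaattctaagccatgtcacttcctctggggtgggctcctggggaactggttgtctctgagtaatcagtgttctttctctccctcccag

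Transcripts assigned to the distal start held 84.5% of the TPM of Prom1 in replicate 1 and 95.2% in replicate 2. Those of the proximal start held 15.5% and 4.81%. The proximal share came from Prom1-207 alone. All of its bases are exonic in Prom1-203, which starts at the distal site, so use of the proximal start was not shown. Besides the RUNX letters and the GATA and MEIS letters given for Mecom, an ETS motif was searched on both strands as CCGGAA. The E-box letters were CAGCTG. The remaining motif, the TATA box, was searched with the letters TATAAA. Of the 7 members with a promoter entry, which together have 9 windows, Cd34 had no match to any of the 6 motifs.

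Prom1-203, which encodes 858 residues, led with 84.5% and 88.5%. Residues and exons are those of GENCODE M21, in which Prom1-203 and Prom1-202 have another length than in the deposited tables. Prom1-207, with 827 residues, had 15.5% and 4.81%, and Prom1-202, with 867 residues, was listed at 0 in replicate 1 and had 5.05% in replicate 2. The small exons in which they differ are shown, since the isoforms rest on them. Prom1-203 has exons of 24 nt (chr5:44001270-44001293) and 69 nt (chr5:44000777-44000845) that Prom1-207 lacks, and Prom1-202 adds one of 27 nt (chr5:44058626-44058652). All are on the minus strand of GRCm38, and every letter is exonic.
Prom1 27-nt exon: CCAGAAATCATAGTCTTGGCTCTGAAG
Prom1 24-nt exon: TGTTGAGACTGTGCCCATGAAAAA
Prom1 69-nt exon: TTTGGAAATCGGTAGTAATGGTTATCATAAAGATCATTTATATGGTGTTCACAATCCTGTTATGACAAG

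The credibility interval of Prom1-207 was 0.108 to 1.63 TPM in replicate 1 and 6.08e-06 to 1.18 TPM in replicate 2, so the libraries were not set apart on it. All of the bases of Prom1-207 are exonic in Prom1-203.

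Ly6a encodes Sca-1, a GPI-anchored protein by which adult mouse stem cells are sorted. Ly6a (ENSMUSG00000075602.6, chr15:74994877-74998031, minus strand) had 2.98 TPM in replicate 1 and 2.55 TPM in replicate 2, from 85 and 67 expected counts. The log2 ratio of Ly6a over Cd34 was −2.49 ± 0.36. Within the Ly6 genes, 4 of 11 reached 1 TPM in both libraries, namely Ly6e, Ly6c2, Ly6a and Gpihbp1. Ly6e, which many cell types express, was highest at 105 ± 10.4 TPM, and Ly6c2, of monocytes, had 8.64 ± 1.01 TPM. The expected counts of Ly6a were whole numbers with a deposited posterior SD of 0, so none of its counted reads was divided with another gene, whereas those of Ly6c1 and Ly6c2 were fractional. Ly6a-201 had 70.0% and 51.1% of the TPM. By posterior mean TPM it had 37.3% and 27.95%, and Ly6a-204 led in replicate 2 with 28.8%. The credibility interval of Ly6a-201 was 0.0338 to 2.10 TPM in replicate 1 and 1.69e-06 to 1.63 TPM in replicate 2, so its lead was not detectable at this depth. It and the other Ly6a transcripts with reads share an annotated protein of 134 residues.

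Slamf1 and Cd48 are neighbours on chromosome 1 and encode proteins of the SLAM family whose opposite use defines the stem cell gate. CD150, the product of Slamf1, is present on adult and fetal stem cells, and CD48 is absent from them and present on most of their progeny. Slamf1 (ENSMUSG00000015316.11, chr1:171767127-171801184, plus strand) had 2.16 TPM in replicate 1 and 2.45 TPM in replicate 2. Cd48 (ENSMUSG00000015355.9, chr1:171682009-171705258, plus strand) lies 61868 bases upstream and had 9.28 and 10.0 TPM. Cd48 was 4.30-fold higher than Slamf1 in replicate 1 and 4.09-fold in replicate 2, a log2 ratio of 2.07 ± 0.05.

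The rest of the SLAM family was lower than Cd48. Of 11 measured genes, 4 reached 1 TPM in both libraries, and 6 lay below it in both. Cd84 had 3.42 and 5.6 TPM, Slamf9 had 1.7 and 1.38 TPM, and the median of the family was 0.42 and 0.63 TPM. Slamf1 and Cd48 each had 1 dominant transcript. Slamf1-201, with 343 residues, held 91.9% and 93.8%, and Cd48-202, with 240 residues, held 100% and 97.9%. With Prom1-203 they were the 3 leading transcripts with a mean share over 80%.

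**Figure D2:**
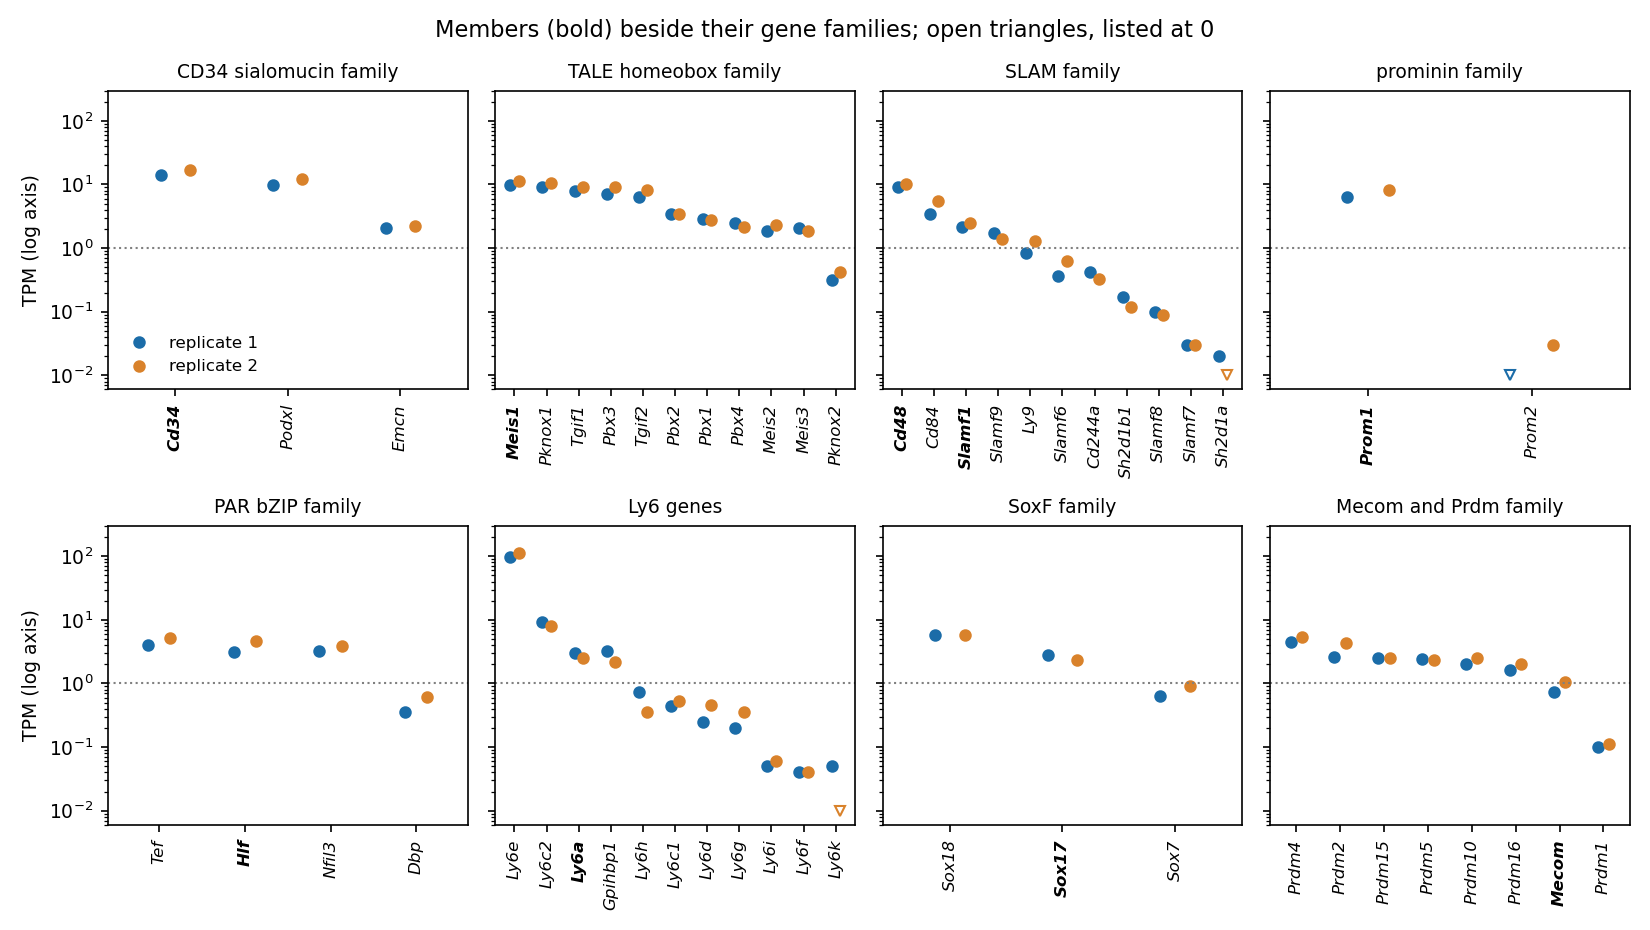
TPM on a log axis for the 9 genes, in bold, and the measured genes of their 8 families, with replicate 1 left of replicate 2 for each gene. Open triangles stand for genes listed at 0 and are drawn at 0.01 TPM, and the dotted line marks 1 TPM. By mean TPM, Cd34, Meis1, Cd48 and Prom1 lead their families, with Meis1 not separated from Pknox1, while Ly6a lies below Ly6e and Ly6c2.

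**Figure D3:**
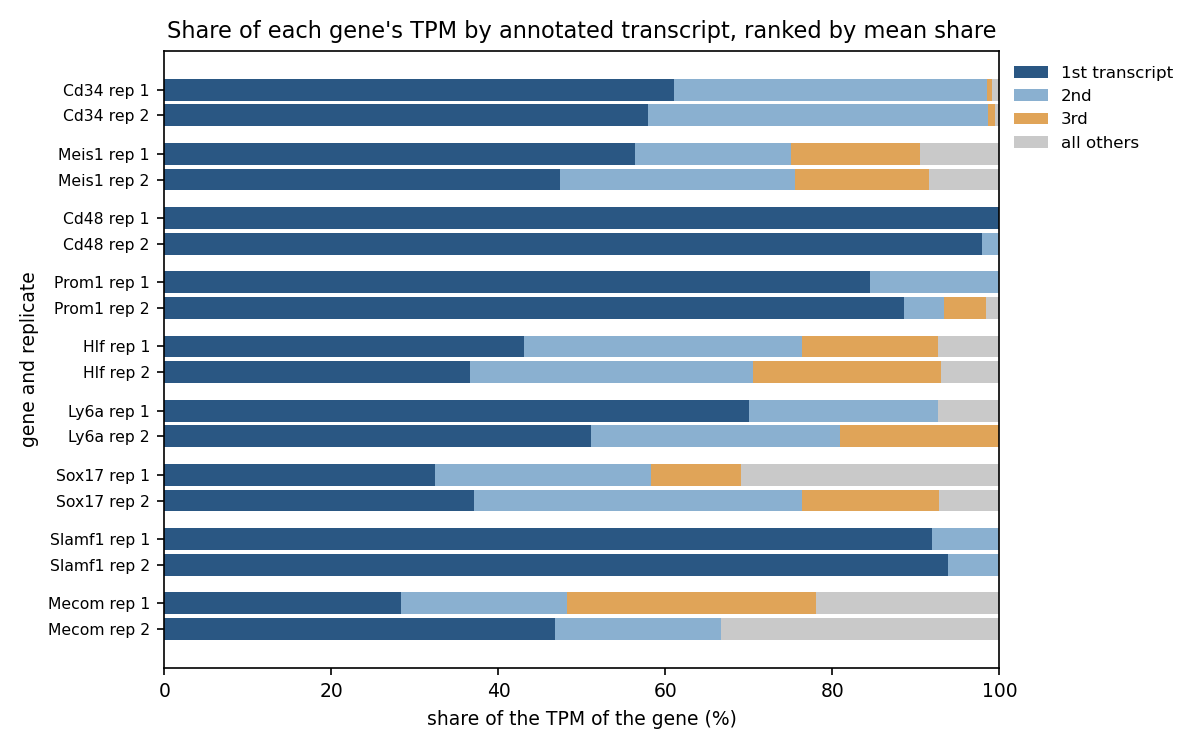
Share of each gene's TPM in percent by annotated transcript, in replicate 1 above replicate 2, as deposited. Colours rank transcripts by their mean share, so a colour stands for the same transcript in both bars of a gene. Cd48, Slamf1 and Prom1 have 1 dominant transcript, and Sox17 and Mecom are spread over several.

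Across all 9 genes the leading transcript was the same in both libraries for 7, or 8 over expected counts. By posterior mean TPM it was also 7, with Sox17 and Ly6a as the exceptions. Of 6403 genes with at least 2 transcripts and a mean count of 50 to 2000, 87.5% had the same leading transcript. The leading transcript of 1 member, Meis1, was not annotated as coding. Of the 63 member transcripts, 58 have the length that GENCODE M21 gives, and the 5 others are of Prom1.

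The wider program of stem and progenitor genes was read from lists. Of 18 other regulators, 16 reached 1 TPM in each library, and their median was 9.39 TPM in replicate 1 and 10.9 TPM in replicate 2. The transcription cofactor gene Lmo2 led at 145 ± 6.38 TPM, followed by Gfi1b and Lyl1 at 94.2 ± 6.86 and 55.0 ± 0.297 TPM. Lmo2 and Gfi1b also act in red cell precursors. Gfi1 was the 1 regulator below 1 TPM in both, at 0.58 and 0.43 TPM.

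Among 20 other surface and niche genes, 16 reached 1 TPM in both libraries and the median was 4.46 and 5.46 TPM. The erythropoietin receptor gene Epor led at 118 ± 0.658 TPM. It was followed by the niche chemokine gene Cxcl12 with 43.3 and 53.2 TPM and the integrin gene Itga2b at 39.7 ± 2.43 TPM. Epor is also among the listed erythroid markers and Itga2b among the megakaryocyte markers. Of 18 genes known from adult stem cells, 15 reached 1 TPM in both libraries. The cell cycle inhibitor gene Cdkn1c had 110.0 ± 6.12 TPM, Mllt3 had 99.9 ± 5.53 TPM and Ifitm3 had 51.9 ± 5.16 TPM. These are levels of the whole tissue, and the part of stem cell RNA in them was not tested. Megakaryocyte markers, some of which stem cells share, all reached 1 TPM, led by Pf4 at 463 ± 42.1 TPM. The mast cell list, in which Hdc led at 6.93 ± 0.361 TPM, had 4 of 10 genes at that level in both libraries.

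By their median the 9 genes did not vary less between the replicates than other genes of like counts. The log2 ratio of replicate 1 over replicate 2, from expected counts after TMM scaling, ranged from −0.32 for Hlf to 0.34 for Ly6a. Its median size, regardless of sign, was 0.19 for the members, against 0.14 for genes with a mean count of 50 to 2000. None was over 1.5-fold apart, against 8.16% of the 15997 genes whose mean count was 10 or more and 3.46% of the 9203 genes in the narrower range of counts, shares under which fewer than 1 of 9 genes would be that far apart. Exact 95% counting intervals, which cover counting error only, excluded equality for 4 genes, against 38.8% of all genes with a ratio and 35.9% of those in the narrower range. Those were, as replicate 2 over replicate 1, Hlf with an interval of 1.10 to 1.42, Prom1 at 1.16-fold (1.06 to 1.28), Meis1 at 1.11-fold (1.01 to 1.22) and Cd34 at 1.10-fold (1.02 to 1.18). For Ly6a, with the fewest counts, the interval ran from 0.563 to 1.10.

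The sign of these ratios depended on the scaling. After TMM, 6 genes were higher in replicate 2, against 49.7% of all genes with a ratio, and Cd48, Ly6a and Sox17 were higher in replicate 1. On TPM as deposited or total counts, 7 were higher in replicate 2, since Cd48 changed side. Scaling by spike-ins moved every gene by 0.64 on the log2 scale, and all 9 were then higher in replicate 1, as were 97.0% of all genes with a ratio. Of the 9, 4 were over 1.5-fold higher, against 59.5% of all genes, so neither count sets the members apart. The median log2 TPM ratio of all genes with a ratio was −0.15, and the TPM of Hlf was 1.47-fold higher in replicate 2. The part of the cardiac RNA in these ratios was not tested.

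**Figure D4:**
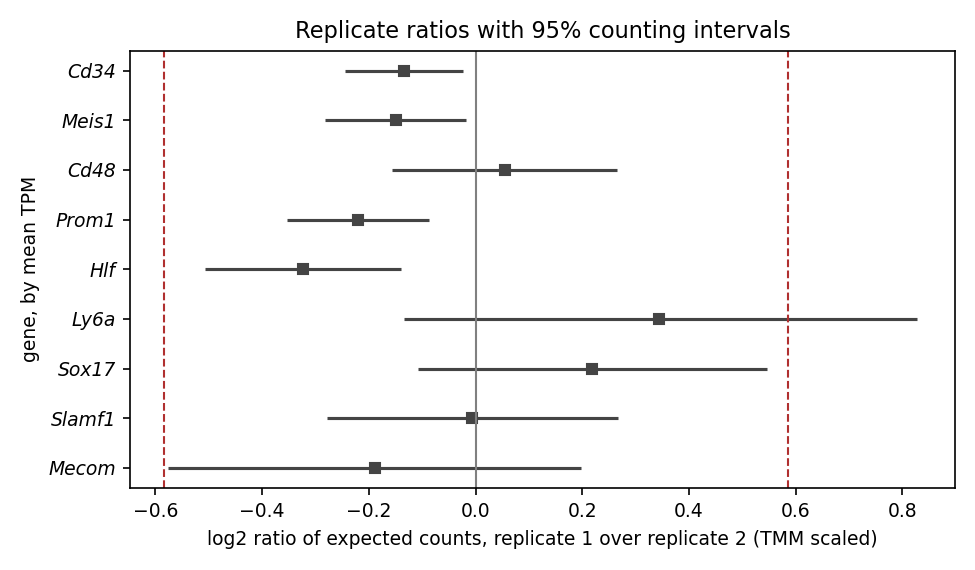
Log2 ratio of expected counts, replicate 1 over replicate 2, after TMM scaling, with exact 95% counting intervals. The solid line marks equality and the dashed lines 1.5-fold. All 9 ratios lie between −0.32 and 0.34, and with spike-in scaling all would shift to the right by 0.64 and lie above 0.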

How the data were processed

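Total RNA of more than 200 nt was measured in 2 libraries of liver at day 13.5. The deposited readme names mm10 and GENCODE M4 for the quantification, in 1 table of genes and 1 of transcripts per library. The aligner, the counting tool and the use of strand are not given in the sources. Expected counts, per the file headers, are estimated reads that the authors' model divides among features. TPM and FPKM were normalised by the authors over genes, transfer RNAs and spike-ins. The percent of a gene's TPM in each transcript, and the credibility bounds and posterior SD, which are on the scale of TPM and of counts and are recorded as a signal, are deposited columns. No source used states the level of the credibility interval.

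Symbols and coordinates came from GENCODE M21 on GRCm38, by gene ID, for 42462 of 43346 genes. The 96 spike-ins and 26249 transfer RNA and control entries were left out of gene totals. Ratios used expected counts plus 0.5 with TMM factors from edgeR 4.0.16, and DESeq2 1.42.0 size factors as an alternative (R 4.3.3; counts were rounded for both tools). Other steps used Python 3.11.15, matplotlib 3.10.9, scipy 1.17.1, pandas 2.3.3 and numpy 2.4.6. The ratio step was tested on simulated data. A count of 0 allows up to 3 counts. Intervals and floors cover counting error only, since the files hold no molecular identifiers. Ratios of low counts are the least precise.

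The labels define 1 group, so no condition could be tested and no p-value was computed. The members and the 23 other gene lists were chosen with earlier results of these data known. The rule for naming admitted the 9 members, all genes of a list with at most 5 measured genes, otherwise its 3 highest by mean TPM. It also admitted the genes of 11 fixed ratios within a library. Not every gene that the rule admits is named, and the macrophage, mesenchymal and neural lists are not described. Gfi1, Pknox2, Gpihbp1, Ly6c1, Slamf9, Cd3e and the genes that overlap members were named after their values were seen. Prdm3 and Cd244, which name genes listed under other symbols, had no entry. Alternatives covered the estimator, the scaling, globins, thresholds, pseudocounts and each replicate alone.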

Additional observations from a re-analysis of the deposited data

How the results depend on the processing

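The count of members at 1 TPM or more was 8, and it was 9 with posterior mean TPM, with TPM rescaled to annotated genes without globins or at a limit of 0.5 TPM. With 1 replicate left out in turn it was 8 to 9, and the median of the members was 3.18 to 4.68 TPM. That median was 3.93 TPM as reported and 5.99 TPM after that rescaling, which leaves spike-ins and transfer RNAs out of the total together with globins, so every level rises. The count of members over 1.5-fold apart was 0 after TMM, 4 with spike-in scaling and 2 at a less strict limit on the fold, and 0 under DESeq2 size factors, total counts, deposited TPM, posterior mean counts, another added count and a limit of 2-fold. Of 8 neighbouring pairs, 4 to 6 were separated in level over the estimators tried. The leading transcript was shared for 7 or 8 members. Of the values of single genes and ratios under alternatives, 115 stayed within the spread between replicates and 24 did not. The 115 include the levels from each replicate alone and the ratios without a filter on low counts, which could not leave that spread. No mean ratio within a library changed sign. No paired analysis was possible because the labels define 1 group, so no groups share replicate numbers. Depth limits Mecom, with 107 and 122 counts, and Ly6a, with 85 and 67 counts, and the isoforms of both.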
